A study of Mus musculus with 4 samples.

Results

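The genes described here are 30 genes of the tricarboxylic acid (TCA) cycle and of pyruvate, malate, citrate, acetyl-CoA and glutamate metabolism, out of 21523 gene identifiers measured in RAW264.7 cells. They were chosen by name from a list covering pyruvate entry, the cycle itself, anaplerosis, malic enzyme, citrate export and glutamate use. Earlier results of these data were known when they were chosen. Each was found once in the table. RAW264.7 cells are mouse macrophages transformed by a leukaemia virus, and as a continuous line they stand for tissue macrophages only in part. The study compared 2 control libraries (labelled as untreated) with 2 libraries of cells given 0.5 mM 1,5-anhydroglucitol (1,5-AG) for 24 h, and all were grown in DMEM medium with fetal bovine serum and antibiotics. 1,5-AG is a polyol related to glucose that lacks the hydroxyl group of the anomeric carbon. Levels are given as FPKM, fragments per kilobase of exon and scaled to the library's total fragments. No culture time is given for the controls. The labels do not say that replicates were separate cultures, so p-values refer to the scatter among libraries alone, and that scatter may be technical. In bulk RNA a lower level in every cell and a smaller number of expressing cells cannot be told apart.

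The TCA cycle oxidises acetyl-CoA in the mitochondrial matrix and passes electrons to the respiratory chain. Pyruvate enters through a carrier in the inner membrane and is turned into acetyl-CoA by pyruvate dehydrogenase or into oxaloacetate by pyruvate carboxylase. Citrate that leaves the mitochondrion feeds cytosolic acetyl-CoA for lipid synthesis, and several steps exist as a cytosolic and a mitochondrial enzyme encoded by different genes. In macrophages this pathway is known for its rewiring on activation, when citrate and succinate build up and citrate-derived itaconate is made.

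The FPKM values imply scaling totals of 14616556 to 16228673 fragments per library. The macrophage genes Cd68, Csf1r, Adgre1, Lyz2, Ptprc and Itgam were all present, with a summed level of 5227 to 5354 FPKM in control and 3760 to 3843 FPKM with 1,5-AG. Most of this sum was Lyz2, the 1 of the 6 that was called lower (log2 difference -0.56, limma adjusted p = 0.0169). The other 5 summed to 801 and 805 FPKM in control and 748 and 759 FPKM with 1,5-AG. Both 1,5-AG libraries were below both controls for 5 of the 6 (25.4% of all genes tested), and 4 of the 6 had an unadjusted p under 0.05 (18.2% in either direction). The part of these differences in the results below was not tested. The 19 markers of fibroblasts, T cells, B cells, neutrophils, epithelium and erythroid cells were either not in the table or at most 0.394 FPKM in any library. Differences were tested with limma on log2(FPKM + 1) over the 11120 genes with a mean of at least 1 FPKM, and p-values were adjusted over all of them. All 30 genes passed this filter.

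Of the 30 genes, 1 was called at a limma adjusted p under 0.05. Idh1, which encodes the cytosolic and peroxisomal isocitrate dehydrogenase that makes NADPH while turning isocitrate into 2-oxoglutarate, rose with 1,5-AG. Its level was 117 and 123 FPKM in the control libraries and 169 and 165 FPKM in the 1,5-AG libraries, so the groups did not overlap. The means were 120.0 ± 3.58 FPKM in control and 167 ± 2.16 FPKM with 1,5-AG (SD, n = 2 per group), a ratio of 1.39. On the log2(FPKM + 1) scale the difference was 0.47 (SE 0.04, limma adjusted p = 0.0209). In fragments this was 4936 and 5510 for the controls, and 6826 and 6930 for the treated cells. By p-value Idh1 ranked 28 among the 11120 genes tested, and by the size of the difference it ranked 389. It lies on chromosome 1 (65158616 to 65186500 on mm10, minus strand).

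The other 29 genes did not pass. Of the 30 genes 1 was called higher and 0 lower, where 1.46% of all genes tested were called, 0.809% higher and 0.647% lower. Of the other 29, Me2, Got2 and Idh3g had an unadjusted p under 0.05 in limma, as did 18.2% of all genes tested, and voom called Me2. In absolute terms the median difference of the 30 genes was 0.06, against 0.08 over all genes tested and also 0.08 over the genes with a mean of at least 5 FPKM. Apart from Idh1, log2 differences ran from -0.11 for Aco1 to 0.19 for Me2. For 27 of the 29 the 95% interval of the difference lay within 0.3 on the log2 scale in either direction, the exceptions being the weakly expressed genes Mpc1 and Acss2, whose intervals reached -0.35 and -0.33. Both 1,5-AG libraries lay above both controls for 8 of the 30 genes and below them for 11, against 24.2% and 25.4% of all genes tested (49.6% in either direction).

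**Figure D1:**
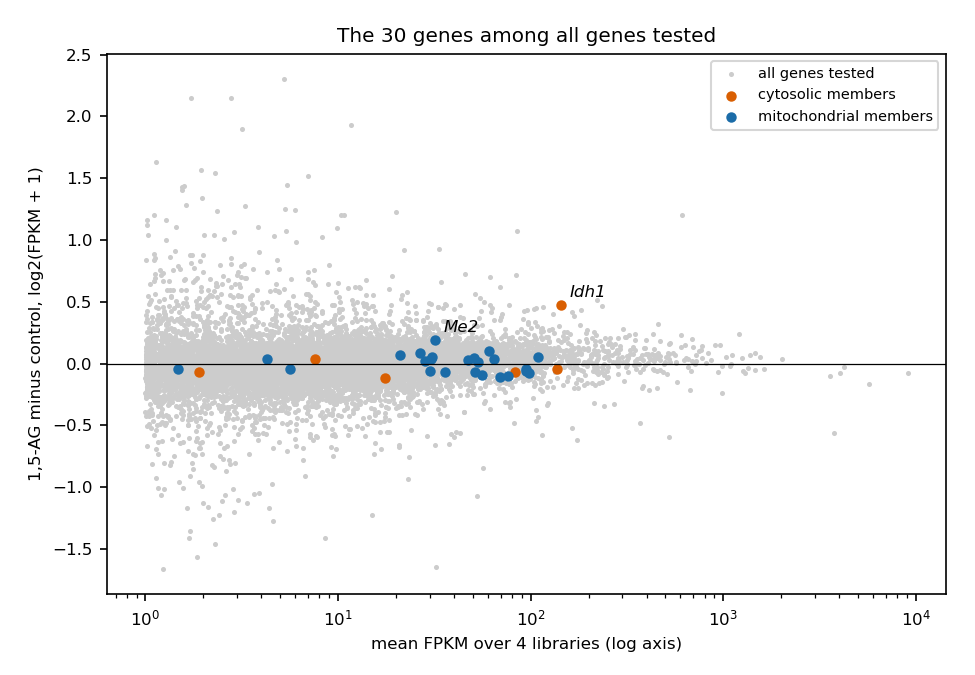
Difference between groups on the log2(FPKM + 1) scale (vertical axis) against the mean FPKM over 4 libraries (log axis) for the 11120 genes tested (grey) and the 30 genes, coloured by the compartment of their product. Idh1 stands at 0.47 and Me2 at 0.19, while the other 28 lie between -0.11 and 0.10.

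Idh1 was the gene called higher, and Idh2 is its mitochondrial counterpart and the gene that it is compared with. The windows around their annotated start sites are therefore shown. Each runs from 250 bases before the start to 50 after it, 5′ to 3′ on the gene's strand, from RefSeq on GRCm38.p6. Capitals mark a CCAAT box (CCAAT) or a GC box (GGGCGG) on either strand.
Idh1, chr1:65186430-65186729, minus strand: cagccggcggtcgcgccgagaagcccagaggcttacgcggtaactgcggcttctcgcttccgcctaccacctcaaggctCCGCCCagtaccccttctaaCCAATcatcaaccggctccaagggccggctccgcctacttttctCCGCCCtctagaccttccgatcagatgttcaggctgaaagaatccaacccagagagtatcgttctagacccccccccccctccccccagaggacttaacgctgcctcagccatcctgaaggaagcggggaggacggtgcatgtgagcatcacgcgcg
Idh2, chr7:80115301-80115600, minus strand: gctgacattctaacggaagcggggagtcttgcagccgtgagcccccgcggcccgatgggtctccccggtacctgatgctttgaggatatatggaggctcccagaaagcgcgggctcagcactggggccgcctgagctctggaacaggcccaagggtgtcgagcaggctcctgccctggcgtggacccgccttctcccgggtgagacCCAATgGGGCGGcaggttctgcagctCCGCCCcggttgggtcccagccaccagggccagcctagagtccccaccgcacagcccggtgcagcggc
In the Idh1 window the CCAAT box begins at -151 and the GC boxes at -171 and -107, counted from the start site. In the Idh2 window the CCAAT box begins at -44 and the GC boxes at -38 and -18. The table holds a second Idh1 window for an internal start (chr1:65179093-65179392), with 1 GC box.

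Windows were found for 28 of the 30 genes, all but Idh3a and Me2. A CCAAT box occurred in 18 of the 28 and a GC box in 22, against 41.1% and 38.2% of the 27025 genes with a window. Those 27025 were taken whatever their level, while the 30 genes had a median level percentile of 90.4 among genes tested. Whether the motifs go with the pathway or with level was not tested. The E-box CACGTG was in the windows of Pcx, Ogdh and Slc25a1 (8.09% of all genes), and the NRF1 motif in those of Dld and Sucla2 (5.19%). NRF1 is a transcription factor of nuclear genes for mitochondrial proteins. The sterol regulatory element (searched as TCACNCCAC, 1.44% of all genes), the ERR motif TCAAGGTCA (0.466%), the ATF4 composite site TGATGNAAT (1.08%) and the DR4 repeat (0.0148%) were in none of the 28. Both strands were searched, and a match is a description of letters in the window.

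**Figure D2:**
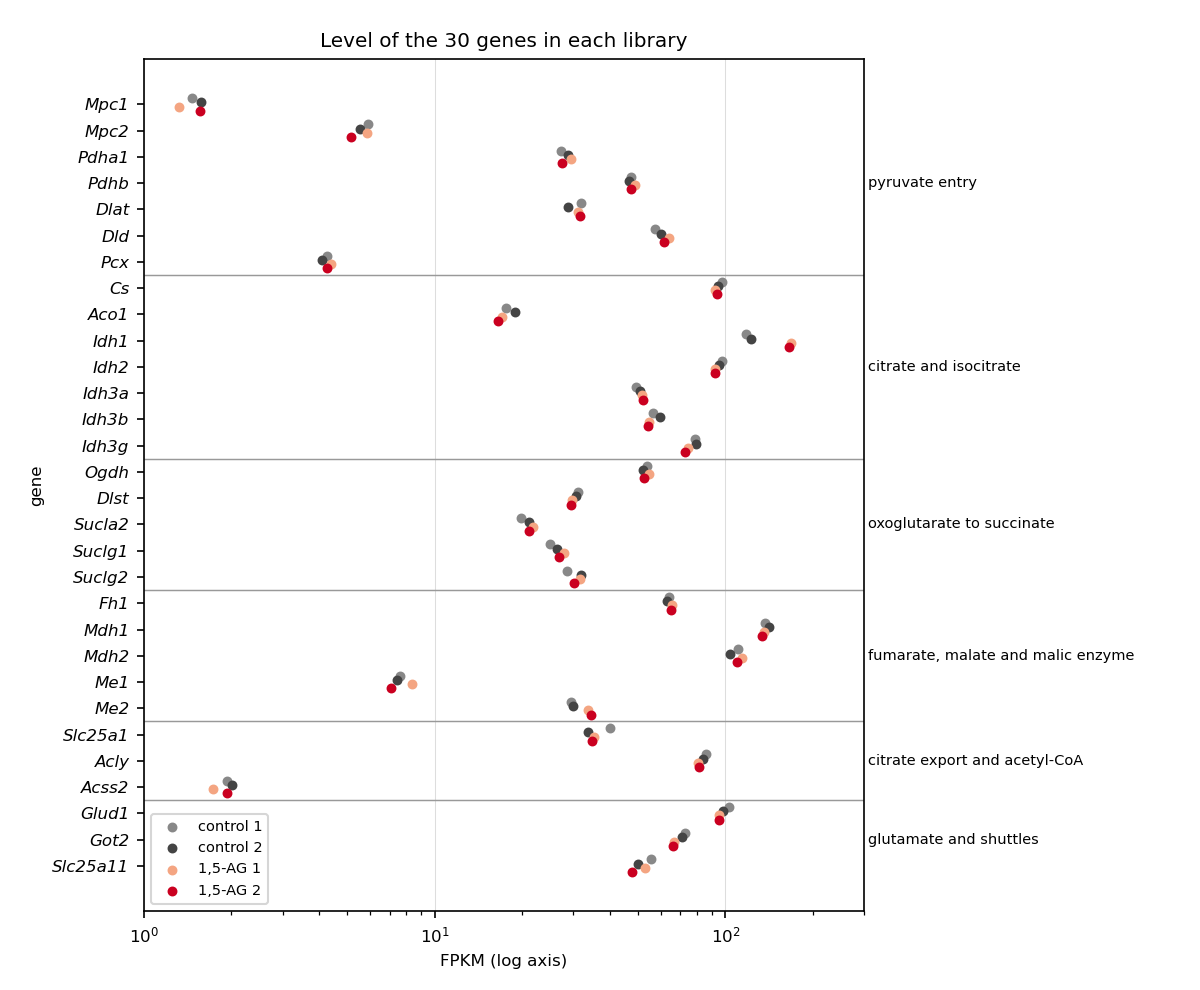
FPKM of each of the 30 genes (log axis) in the 4 libraries, grouped by step of the pathway, with 1 point per library. Levels run from 1.31 FPKM for Mpc1 to 169 FPKM for Idh1, and for most genes the 4 points nearly coincide.

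Pyruvate entry was covered by 7 genes, and 0 passed the test. Mpc1 and Mpc2 encode the subunits of the mitochondrial pyruvate carrier. Mpc2 had 5.88 and 5.54 FPKM in control and 5.84 and 5.17 FPKM with 1,5-AG. Mpc1 was the least abundant of the 30 genes, at 1.46 and 1.57 FPKM in control and 1.31 and 1.56 FPKM with 1,5-AG, from 40 to 53 fragments per library. In both genes the groups overlapped. The level of Mpc1 is uncertain because a processed pseudogene on chromosome 12, Mpc1-ps (110858565 to 110858894), matches it at 100% identity over 261 bases. Mpc1-ps itself had 46.6 and 56.2 FPKM in control and 60.1 and 58.7 FPKM with 1,5-AG, from 233 to 301 fragments over its 330 bases. Fragments of the shared stretch cannot be told apart between the gene and its copy. Their summed fragments were 279 and 354 in the controls and 330 and 342 after 1,5-AG.

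The pyruvate dehydrogenase complex joins the E1 subunits Pdha1 and Pdhb, the acetyltransferase Dlat and the dihydrolipoamide dehydrogenase Dld, which is also part of the 2-oxoglutarate dehydrogenase complex. Dld had 57.2 and 60.0 FPKM in control and 64.2 and 61.7 FPKM with 1,5-AG (log2 difference 0.10, limma adjusted p = 0.320). Its groups did not overlap, but the test was not passed. Pdha1 had 27.3 and 28.8 FPKM in control and 29.5 and 27.5 FPKM with 1,5-AG. Pdhb had 47.3 and 46.8 FPKM against 49.0 and 47.3 FPKM, and Dlat 32.0 and 28.7 FPKM against 31.1 and 31.7 FPKM. In these 3 genes the groups overlapped. Dld exceeded Pdha1 by a ratio of 2.10 and 2.09 in control and 2.18 and 2.24 with 1,5-AG. The exact two-sided permutation p of that ratio was 0.333, the smallest that the design allows. Pcx, the pyruvate carboxylase that refills oxaloacetate, was low at 4.27 and 4.11 FPKM in control and 4.40 and 4.27 FPKM with 1,5-AG.

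Citrate synthase (Cs), which condenses acetyl-CoA with oxaloacetate, had 97.2 and 94.6 FPKM in control and 92.0 and 93.5 FPKM with 1,5-AG. Aco1, the cytosolic aconitase that doubles as an iron-sensing RNA-binding protein, had one of the more negative differences of the 30 genes. It measured 17.6 and 19.0 FPKM in control and 17.1 and 16.6 FPKM with 1,5-AG (log2 difference -0.11, limma adjusted p = 0.361). For both genes the 1,5-AG libraries were the lower ones, without passing the test.

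Of the 4 mitochondrial isocitrate dehydrogenase genes 0 passed. Idh2, the NADP-dependent mitochondrial enzyme, had 97.1 and 95.4 FPKM in control and 92.4 FPKM in each 1,5-AG library (log2 difference -0.06, limma adjusted p = 0.449). Idh3a, Idh3b and Idh3g encode the NAD-dependent enzyme of the cycle proper, with Idh3a the catalytic subunit. Idh3a had 49.4 and 50.9 FPKM in control and 51.6 and 52.1 FPKM with 1,5-AG. Idh3b had 56.3 and 59.6 FPKM against 54.6 and 54.1 FPKM, and Idh3g had 78.7 and 79.1 FPKM against 74.6 and 72.9 FPKM (log2 difference -0.10, limma adjusted p = 0.258). In each the groups were separate, as in 49.6% of all genes tested. Idh3a lay on the higher side and the other subunits on the lower side, and 0 of the 3 passed. The ratio of Idh3g to Idh3a was 1.59 and 1.55 in control and 1.44 and 1.40 with 1,5-AG. That of Idh3b to Idh3a was 1.14 and 1.17 against 1.06 and 1.04. Both ratios had an exact two-sided permutation p of 0.333, the smallest that the design allows. Idh1 made up 29.4% and 30.1% of the summed FPKM of these 5 isocitrate dehydrogenase genes in control and 38.1% and 37.9% with 1,5-AG.

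**Figure D3:**
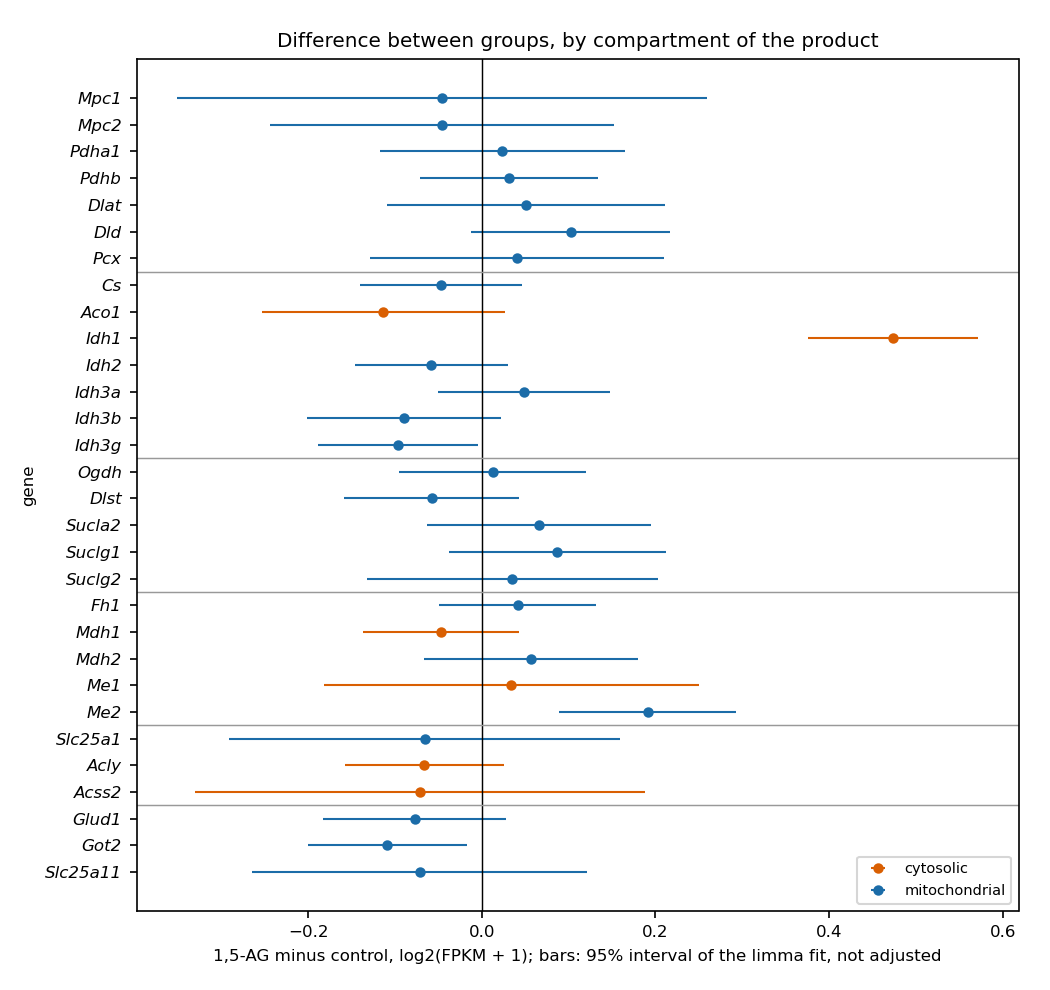
Difference between 1,5-AG and control on the log2(FPKM + 1) scale for each gene, with the 95% interval of the limma fit, not adjusted for the number of genes. The interval of Idh1 runs from 0.38 to 0.57 and lies apart from those of the other 29 genes, none of which reaches above 0.29.

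From 2-oxoglutarate to succinate, 5 genes were measured and 0 passed. Ogdh and Dlst encode components of the 2-oxoglutarate dehydrogenase complex. Ogdh had 54.0 and 52.1 FPKM in control against 54.4 and 52.5 FPKM with 1,5-AG, and Dlst 31.0 and 30.5 FPKM against 29.6 and 29.5 FPKM. Succinyl-CoA ligase pairs the common subunit Suclg1 with Sucla2 in the ATP-forming enzyme or with Suclg2 in the GTP-forming one. Suclg1 had 25.0 and 26.4 FPKM in control and 27.8 and 26.9 FPKM with 1,5-AG (log2 difference 0.09, limma adjusted p = 0.423). Sucla2 had 19.9 and 21.1 FPKM against 21.8 and 21.2 FPKM, and Suclg2 28.5 and 31.8 FPKM against 31.6 and 30.2 FPKM. The ratio of Sucla2 to Suclg2 was 0.698 and 0.664 in control and 0.690 and 0.702 with 1,5-AG, with overlapping groups. A processed pseudogene of Suclg2, Gm15163, matches it at 98.9% identity over 1302 bases and had 6.79 to 9.20 FPKM, so part of either value could belong to the other.

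Fumarase (Fh1), a single gene whose product works in both mitochondria and cytosol and is counted here as mitochondrial, had 63.8 and 63.2 FPKM in control and 65.5 and 65.3 FPKM with 1,5-AG. Malate dehydrogenase was among the most abundant activities at the RNA level. The cytosolic Mdh1 had 137 and 141 FPKM in control and 136 and 134 FPKM with 1,5-AG, and the mitochondrial Mdh2 111 and 104 FPKM against 114 and 109 FPKM. Neither passed, with log2 differences of -0.05 and 0.06.

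Malic enzymes turn malate into pyruvate. The mitochondrial Me2 had the second largest difference of the 30 genes, with 29.48 and 29.99 FPKM in control and 33.8 and 34.4 FPKM with 1,5-AG. The means were 29.7 ± 0.356 and 34.1 ± 0.395 FPKM (SD, n = 2 per group), a ratio of 1.147, and the groups did not overlap. The log2 difference of 0.19 (SE 0.04) did not pass (limma adjusted p = 0.1004), while voom on fragment numbers recovered from the FPKM values called it (0.20, adjusted p = 0.00717), in a fit that called 8.21% of genes. The cytosolic, NADPH-making Me1 was lower in level, at 7.59 and 7.40 FPKM in control and 8.36 and 7.08 FPKM with 1,5-AG, with overlapping groups.

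Citrate export and cytosolic acetyl-CoA supply showed 3 negative differences, where 50.9% of all genes tested were negative, and 0 calls. Slc25a1, the mitochondrial citrate carrier, had 40.2 and 33.6 FPKM in control and 35.2 and 34.9 FPKM with 1,5-AG, so the 1,5-AG libraries lay between the controls. Acly, the ATP-citrate lyase that splits exported citrate into acetyl-CoA and oxaloacetate, had 85.6 and 83.8 FPKM in control and 80.4 and 81.3 FPKM with 1,5-AG (log2 difference -0.07, limma adjusted p = 0.409). Acss2, which makes acetyl-CoA from acetate, was low at 1.93 and 2.01 FPKM in control and 1.73 and 1.93 FPKM with 1,5-AG. The ratio of Idh1 to Acly was 1.37 and 1.46 in control and 2.10 and 2.03 with 1,5-AG. Its exact two-sided permutation p was 0.333, the smallest that the design allows.

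The genes of glutamate and shuttle metabolism likewise gave 3 negative differences, against the same 50.9% of all genes tested, and 0 calls. Glud1, the glutamate dehydrogenase that feeds 2-oxoglutarate into the cycle, had 103 and 97.8 FPKM in control and 94.9 and 95.4 FPKM with 1,5-AG. Got2, the mitochondrial aspartate aminotransferase, had 72.4 and 71.0 FPKM in control and 66.7 and 66.2 FPKM with 1,5-AG (log2 difference -0.11, limma adjusted p = 0.214). Slc25a11, the carrier that exchanges 2-oxoglutarate for malate in the malate-aspartate shuttle, had 55.7 and 50.2 FPKM against 53.1 and 47.6 FPKM. The groups were separate for Glud1 and Got2 and overlapped for Slc25a11. Glud1 has a processed pseudogene, Glud-ps (97.6% identity over 656 bases), which had 2.91 and 3.10 FPKM in control and 4.27 and 4.63 FPKM with 1,5-AG (limma adjusted p = 0.0795).

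By compartment, 1 of 6 cytosolic genes was called higher and 0 lower, and 0 of 24 mitochondrial genes passed in either direction. Of all genes tested, 0.809% were called higher and 0.647% lower. The median log2 difference was -0.06 for the cytosolic genes and 0.02 for the mitochondrial ones, against a median of -0.0025 over all genes tested. The cytosolic genes made up 23.6% and 24.4% of the summed FPKM of the 30 genes in control and 25.9% and 25.99% with 1,5-AG. With Idh1 left out of both sums, these shares were 17.4% and 17.9% in control and 17.1% and 17.2% with 1,5-AG. Without Idh1 the 1,5-AG libraries were thus the lower ones.

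Cytosolic and mitochondrial isoenzymes were also compared as ratios within each library, which do not depend on scaling between libraries, over 6 pairs. The ratio of Idh1 to Idh2 was 1.21 and 1.28 in control and 1.82 and 1.79 with 1,5-AG, a log2 difference of 0.54. The ratio of Got1 to Got2, the cytosolic and mitochondrial aspartate aminotransferases, was 0.879 and 0.901 in control and 1.07 and 1.08 with 1,5-AG (log2 difference 0.27). Got1 stood at 63.7 and 64.0 FPKM in control and 71.3 and 71.5 FPKM with 1,5-AG and did not pass on its own (limma adjusted p = 0.1101). For Mdh1 to Mdh2 the ratio was 1.24 and 1.36 in control and 1.19 and 1.23 with 1,5-AG (log2 difference -0.10), the groups again not overlapping. That difference was -0.17 without control library 1 and -0.04 without control library 2. Each of these 3 had an exact two-sided permutation p of 0.333, the smallest that the design allows, and 0.667 after adjustment over the 6 pairs.

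For the malic enzymes the groups overlapped. The ratio of Me1 to Me2 was 0.258 and 0.247 in control and 0.247 and 0.206 with 1,5-AG (log2 difference -0.16), with an exact two-sided permutation p of 0.667, and 0.800 adjusted. It was -0.29 when the first 1,5-AG library was left out and -0.03 when the second was. Acss1, the mitochondrial partner of Acss2, had 1 to 6 fragments per library, too few for a ratio to be read.

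**Figure D4:**
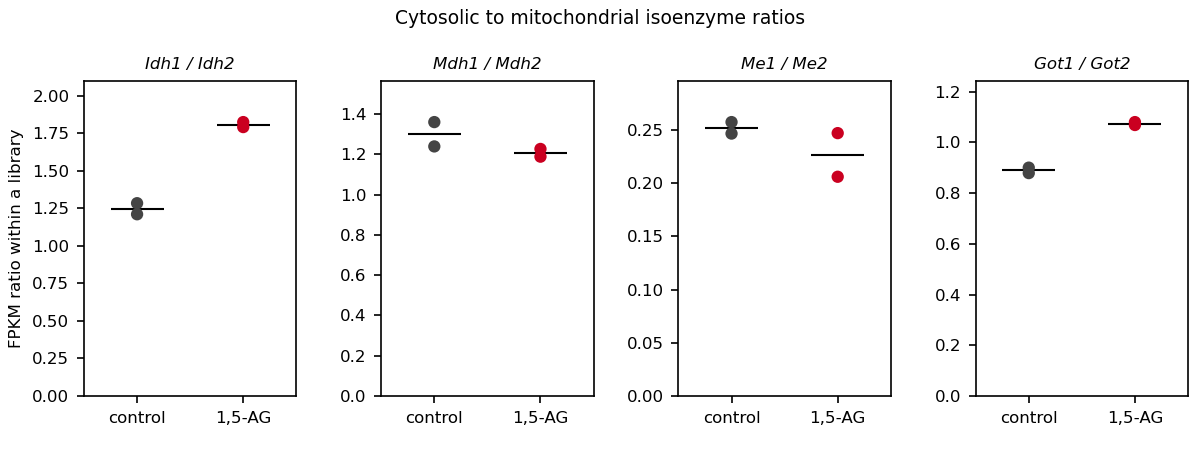
FPKM ratio of the cytosolic to the mitochondrial isoenzyme gene in each library, with a line at each group's mean; every axis starts at 0. Idh1 to Idh2 and Got1 to Got2 are higher in both 1,5-AG libraries than in both controls, Mdh1 to Mdh2 is lower in both, and the groups overlap for Me1 to Me2.

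Other genes of the pathway were read from lists outside the 30. Of 11 tested genes of pyruvate and lactate handling 0 passed (6 positive, 5 negative, where 50.9% of all genes tested were negative). Over all genes tested 1.46% were called, so 0 calls in a list this short say little about its genes. The ones with the smallest p were Pck2, the mitochondrial phosphoenolpyruvate carboxykinase, with 8.34 and 8.38 FPKM in control and 10.5 and 10.8 FPKM with 1,5-AG (limma adjusted p = 0.0621), and Ldha, a lactate dehydrogenase, with 890 and 924 FPKM against 1017 and 999 FPKM (adjusted p = 0.121). Of 11 further tested genes of the cycle and its side reactions, among them the succinate dehydrogenase subunits, 0 passed. The smallest p values there belonged to Sdhb, the iron-sulphur subunit of succinate dehydrogenase (64.5 and 63.6 FPKM against 61.2 and 57.7 FPKM, limma adjusted p = 0.3001), and Acod1, the enzyme that makes itaconate, which was weak at 1.76 and 2.56 FPKM in control and 2.71 and 2.80 FPKM with 1,5-AG (limma adjusted p = 0.415).

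Among 13 tested genes of glutamine, glutamate and related amino acids 1 was called higher (0.809% of all genes tested were) and 0 lower (0.647%). Their median log2 difference was 0.14. The called gene was Asns, which uses glutamine to make asparagine. It had 58.6 and 63.4 FPKM in control and 79.1 and 82.9 FPKM with 1,5-AG (log2 difference 0.40, limma adjusted p = 0.0461). The call of Asns was lost without the filter (adjusted p = 0.155), without the variance trend (0.123), under quantile normalization (0.0854) and with any 1 library left out (0.109 to 0.172). In 9 of the 13 both 1,5-AG libraries lay above both controls, against 24.2% of all genes tested.

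Of 7 tested genes that use or make acetyl-CoA in other pathways 1 was called higher and 0 lower, against the same 0.809% and 0.647% of all genes tested. It was Acaca, the acetyl-CoA carboxylase of fatty acid synthesis, at 11.2 and 11.6 FPKM in control and 15.0 and 14.8 FPKM with 1,5-AG (log2 difference 0.36, limma adjusted p = 0.0461). Acaca likewise was not called without the filter (adjusted p = 0.123), without the variance trend (0.106), under quantile normalization (0.0515) or with any 1 library left out (0.148 to 0.198). Fasn, which uses the malonyl-CoA so made, had overlapping groups at 66.3 and 59.9 FPKM in control and 64.6 and 60.5 FPKM with 1,5-AG. Of 9 tested mitochondrial carriers 0 passed, the smallest p values being those of the dicarboxylate carrier Slc25a10 (limma adjusted p = 0.330) and the glutamate carrier Slc25a22 (0.524). Of the 3 genes that make or attach lipoate, a cofactor of Dlat and Dlst, 0 passed (Lias, limma adjusted p = 0.348, and Lipt1, 0.7199).

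**Figure D5:**
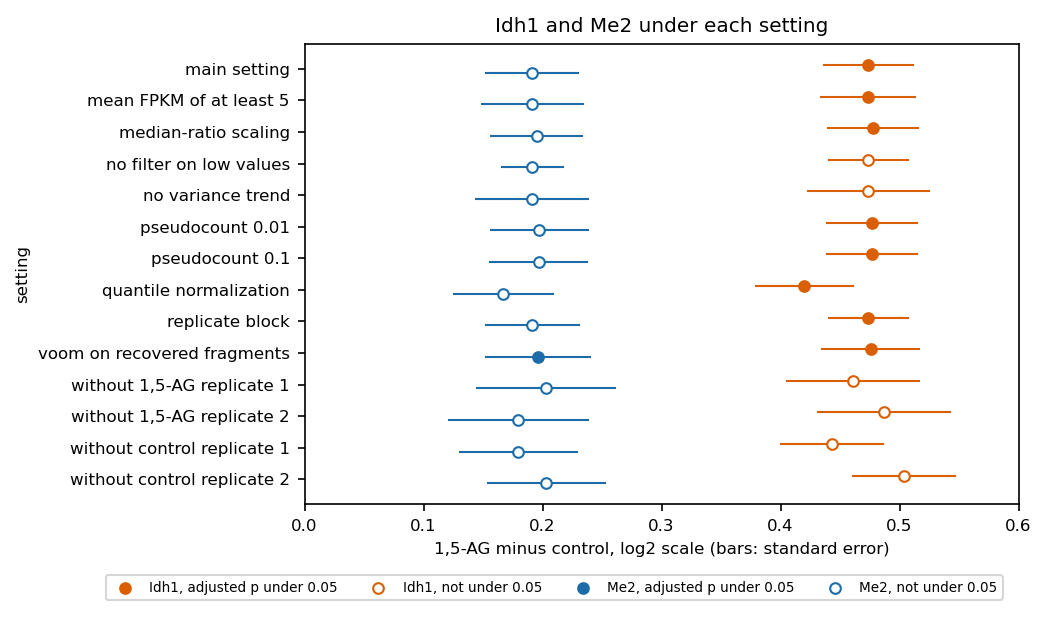
Log2 difference of Idh1 and Me2 with its standard error under the settings of the report and each alternative; filled points passed an adjusted p of 0.05. Idh1 stays between 0.42 and 0.50 and Me2 between 0.17 and 0.20 in all of them, while the adjusted p crosses the threshold between settings.

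The call of Idh1 rested on all 4 libraries. When control library 1 or 2 was left out, the log2 difference of Idh1 was 0.44 or 0.50, and it was 0.46 or 0.49 when the first or second 1,5-AG library was left out. The limma adjusted p of Idh1 then lay between 0.0909 and 0.108, in fits that called 2 to 10 genes in all (0.018% to 0.0899% of those tested).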

How the data were processed

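RNA was sequenced from 2 control and 2 1,5-AG libraries of RAW264.7 cells. Per the labels' protocols, RNA isolation used Trizol and the kit was a TruSeq Stranded mRNA one. The authors deposited FPKM values, 1 column per library. Trimmomatic, HISAT2, Cufflinks, HTSeq and the build mm10 are named per the submitters' processing notes; their versions and roles, the strand setting and the annotation were not given in the sources used. Symbols, coordinates and exon lengths came from GENCODE M21, which matched 21508 of 21523 identifiers, and 8 rows with a repeated symbol were left out. Multiplied by exon length, FPKM gave whole fragments in all libraries for 99.4% of matched genes, within 0.02. At this depth 3 fragments in 2 kb of exon equal 0.0924 to 0.103 FPKM, a floor for counting error only.

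limma 3.58.1 in R 4.3.3 (lmFit, then eBayes with a variance trend) was fitted to log2(FPKM + 1) for 11120 genes with a mean of at least 1 FPKM, group as the only term, two-sided, Benjamini-Hochberg threshold 0.05. This scale understates changes of weak genes. Alternatives were the pseudocount, the filter, the trend, scaling, quantile normalization, voom, a replicate block and leaving out each library. Ratios were compared by exact permutation over libraries (Python 3.11.15). Beyond the isoenzyme pairs, ratios of other pairs of the 30 genes were computed without adjustment, and only some are printed. Of those not printed, the groups overlapped for Pdha1/Pdhb, Dlat/Pdhb, Mpc1/Mpc2, Pcx/Pdha1, Got2/Glud1 and Acly/Acss2. They were separate for Idh1/Idh3a, Me2/Mdh2, Acly/Cs and Ogdh/Dlst. A near-identical copy is a transcript with at least 95% identity over at least 200 bases (BLAST). The 30 genes, the other lists and the tests were chosen with earlier results of these data known. The rule for named genes required library values for called genes, isoenzyme pairs and the extremes of difference and level, and all 30 are printed; from other lists it took called genes or, failing those, the 2 with the smallest p. Mpc1-ps, Gm15163, Glud-ps and Fasn were added after their values were seen. One of the 6 isoenzyme pairs is not reported here.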

Additional observations from a re-analysis of the deposited data

How the results depend on the processing

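Under limma the 162 genes called became 0 without a filter on low values (2628 had an unadjusted p under 0.05 in that fit, and voom called 908), 360 at a mean of at least 5 FPKM, 5 without the variance trend, 908 with voom and 2 to 10 with 1 library left out. Of the 30 genes, 1 passed with the settings of the report, 2 with voom (Idh1 and Me2), and 0 without a filter, without the variance trend or with any 1 library left out. Idh1 kept its direction in every fit, with adjusted p from 1.22e-07 (voom) to 0.108. It was not called without a filter (0.0887) or without the variance trend (0.0950). The median log2 difference of the 30 genes, -0.0167, was 0.0125 at a mean of at least 5 FPKM and ran from -0.0231 to 0.0329 with 1 library left out. For the cytosolic genes it was -0.0750 under quantile normalization and ran from -0.0593 to -0.0400, and for the mitochondrial genes it was -0.0157 and ran from -0.0135 to 0.0375. Under quantile normalization Ogdh (-0.0248) and Fh1 (-0.00659) changed sign.

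With 1 library left out, log2 differences that changed sign ran from -0.118 to 0.0257 for Mpc1, -0.1201 to 0.0284 for Mpc2, -0.0253 to 0.0724 for Pdha1, -0.0256 to 0.128 for Dlat, -0.0128 to 0.0377 for Ogdh, -0.0425 to 0.113 for Suclg2, -0.0714 to 0.139 for Me1, -0.192 to 0.0599 for Slc25a1 and -0.148 to 0.00494 for Slc25a11. The log2 ratio of Acss2 to Acss1 ran from -0.319 to 2.21, and it has no value under quantile normalization because Acss1 was under the filter. Such fits assume that the lone library varies like the other group. The replicate block called 310 genes, with Idh1 the only one of the 30 (limma adjusted p = 0.0169). The deviations of libraries with the same number had a correlation of 0.0124 over 11120 genes. The labels do not say whether such libraries shared a culture or a batch, and this correlation cannot exclude it. Beyond the fewer libraries or genes of some settings, the cause was not tested.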

Other observations

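Genes of mitochondrial porins, import and chaperones, together with Tfam, Phb and Phb2, were read beside the mitochondrial enzymes. Of 16 tested, 15 had a positive difference, as did 5464 of all 11120 genes tested, and 0 passed, where 1.46% of all genes did. The median log2 difference of the 16 was 0.11, against -0.0025 over all genes tested. In 12 of the 16 both 1,5-AG libraries lay above both controls, and in 0 below, where 24.2% and 25.4% of all genes did so. All 16 had a mean over 5 FPKM. Of the 7500 genes with a mean of at least 5 FPKM, 3925 were positive, with a median of 0.0065. Both 1,5-AG libraries lay above both controls in 2105 of these 7500 genes and below in 1863. The smallest p values belonged to Hspa9, the mitochondrial HSP70 chaperone, with 234 and 246 FPKM in control and 271 and 272 FPKM with 1,5-AG (limma adjusted p = 0.105), and Hspe1, the small partner of the chaperonin HSP60, with 108 and 111 FPKM against 122 and 117 FPKM (limma adjusted p = 0.2002). The 24 mitochondrial metabolic genes, with a median of 0.02, had 7 genes with both 1,5-AG libraries above both controls and 7 with both below. The difference between the lists was not tested.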
